A study of Mus musculus with 2 samples.

Results

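The stretch of mouse chromosome 17 from 6 to 92 Mb held 1893 of the 40119 peaks of H3K9me3 in the deposited list, or 4.72% of them. It was selected on the number of peaks per Mb, which was higher on chromosome 17 than on any other autosome, so its peak density is a description of what chose it and carries no test. The last peak before the lower limit (5962429 to 5963158) held 16.2 normalized tags and the first inside it (6004534 to 6005728) held 29.3. At the upper limit the last peak inside (91834502 to 91837322) held 72.3 and the first beyond it (92132879 to 92133702) held 24.1. Another 58 peaks of chromosome 17 lay outside the limits. The part below 40 Mb, which spans the mouse t-complex, is called proximal here and held 1000 peaks. The part from 40 to 92 Mb is called distal and held 893.

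Chromatin was immunoprecipitated with an antibody against H3K9me3 from intestinal stem cells and sequenced. The cells were sorted for high GFP and low CD24 from 12 pooled Lgr5-EGFP-IRES-creERT2;setdb1fl/fl mice of strain C57BL/6 at 8 weeks of age. The reporter is driven from the Lgr5 gene, which marks cycling crypt stem cells, the floxed Setdb1 allele is carried by all the mice, and no label says whether it had been deleted. One ChIP library was set against 1 control library from the same kind of cells, titled input with IgG as its antibody. With 1 library per group there is no replicate, no test was made, and each interval below is an exact 95% interval that covers counting error only. For a ratio of shares it covers the counting error of the first share alone. Defining markers of the cells could not be checked, since a peak list holds no expression.

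H3K9me3 is a histone mark of silenced chromatin. It is bound by HP1 proteins and is laid down by several methyltransferases, among them SETDB1, which KRAB zinc finger proteins recruit through KAP1 to transposons and to some genes. The t-complex is a proximal stretch of chromosome 17 where inversions hold together the t haplotype, a group of alleles passed on by heterozygous males to most of their offspring. Several of its genes act in sperm motility, and it also carries the imprinted Igf2r cluster, vomeronasal receptor and zinc finger gene clusters and the major histocompatibility complex. C57BL/6 mice do not carry the t haplotype.

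Most peaks were narrow and shallow. The median peak of the region was 760 bp wide and rested on 16 ChIP tags, or 16.8 normalized tags, where 1 tag is worth 1.05 normalized tags. On the other autosomes, trimmed at their ends in the same way, the medians were 764 bp and 17.3 normalized tags. The median fold over control was 12.3 in both. The control stood at its lowest value, 0.5 tag, in 43.5% of peaks of the region and in 43.4% elsewhere. The individual peaks of chromosome 17 were thus much like those of other autosomes, and the region stood apart in their number.

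A peak is called tall below when it held at least 50.8 normalized tags, which is the top 10% of the whole list. Only 11 of 1095 annotated starts of protein-coding genes in the region had a tall peak over the 250 bases before to 50 after the start (1.00%, beside 0.964% of 17736 starts elsewhere). The sequences of 4 such starts are shown as examples, from genes of different roles, where the tall peak covered the whole 250 bases before the start. They belong to Dazl, which encodes an RNA-binding protein of germ cells, Sox8, a transcription factor of the SoxE group, Tapbp, whose product tapasin helps to load peptides onto class I molecules, and Lbh, a transcription cofactor. With them are T, which encodes brachyury and had a low peak reaching its promoter, and Igf2r and the downstream start of Cdkn1a, where no peak touched the window. All are the 250 bases before the start in RefSeq's annotation of GRCm38.p6, written 5′ to 3′ on the strand of the gene, with each CG dinucleotide in capitals. Dazl, Sox8, Tapbp and Lbh were chosen after their values were seen.
Dazl, chr17:50293621-50293870, minus strand: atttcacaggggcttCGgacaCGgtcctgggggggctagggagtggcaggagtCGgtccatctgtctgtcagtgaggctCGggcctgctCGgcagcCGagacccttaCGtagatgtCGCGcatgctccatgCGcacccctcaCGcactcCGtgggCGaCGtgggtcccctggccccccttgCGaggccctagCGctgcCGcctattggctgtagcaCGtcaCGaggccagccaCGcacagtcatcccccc
Sox8, chr17:25570687-25570936, minus strand: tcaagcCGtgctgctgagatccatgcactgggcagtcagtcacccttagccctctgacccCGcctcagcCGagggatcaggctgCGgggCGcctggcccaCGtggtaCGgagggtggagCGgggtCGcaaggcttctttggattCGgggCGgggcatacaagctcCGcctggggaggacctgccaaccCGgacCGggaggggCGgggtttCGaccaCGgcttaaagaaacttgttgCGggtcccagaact
Tapbp, chr17:33919228-33919477, plus strand: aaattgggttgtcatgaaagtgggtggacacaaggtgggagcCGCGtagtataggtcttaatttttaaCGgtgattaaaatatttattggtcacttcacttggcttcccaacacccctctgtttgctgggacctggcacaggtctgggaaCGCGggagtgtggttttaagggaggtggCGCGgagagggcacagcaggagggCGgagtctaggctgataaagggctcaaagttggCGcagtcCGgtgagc
Lbh, chr17:72918055-72918304, plus strand: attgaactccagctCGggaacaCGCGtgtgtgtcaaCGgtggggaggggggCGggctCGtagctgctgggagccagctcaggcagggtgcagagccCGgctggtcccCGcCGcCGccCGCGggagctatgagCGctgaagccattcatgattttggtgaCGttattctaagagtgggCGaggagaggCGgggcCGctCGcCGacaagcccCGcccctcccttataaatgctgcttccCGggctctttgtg
T, chr17:8434173-8434422, plus strand: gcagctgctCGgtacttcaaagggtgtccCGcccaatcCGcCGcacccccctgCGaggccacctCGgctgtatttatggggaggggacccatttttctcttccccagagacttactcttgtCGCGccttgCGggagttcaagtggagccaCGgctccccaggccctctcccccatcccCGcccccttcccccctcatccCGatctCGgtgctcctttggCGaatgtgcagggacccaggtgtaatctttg
Igf2r, chr17:12769707-12769956, minus strand: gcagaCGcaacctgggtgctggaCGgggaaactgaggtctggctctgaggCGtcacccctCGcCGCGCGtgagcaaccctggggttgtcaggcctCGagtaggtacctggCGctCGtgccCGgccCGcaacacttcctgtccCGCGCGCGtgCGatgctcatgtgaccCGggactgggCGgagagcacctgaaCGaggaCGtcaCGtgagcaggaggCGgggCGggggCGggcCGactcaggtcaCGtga
Cdkn1a, chr17:29093519-29093768, plus strand: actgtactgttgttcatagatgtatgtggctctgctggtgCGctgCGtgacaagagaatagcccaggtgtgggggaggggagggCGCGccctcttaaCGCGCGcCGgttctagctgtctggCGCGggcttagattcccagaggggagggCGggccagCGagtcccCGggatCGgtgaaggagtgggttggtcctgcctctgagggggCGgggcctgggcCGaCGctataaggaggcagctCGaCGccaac

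The Dazl promoter held 20 CG dinucleotides in these 250 bases and lay under a peak of 133.0 normalized tags (50293061 to 50294491, 9 control tags, 9.66-fold). The Sox8 promoter held 18 and lay under a peak of 106.3 (25567188 to 25571722, 12.6-fold). The Tapbp promoter held 10 under a peak of 135.7 that ran back over the neighbouring gene Zbtb22 (33916206 to 33920415, 9.33-fold), and the Lbh promoter held 21 under a peak of 54.5 (72918025 to 72919419, 6.47-fold). Among these examples CG content did not separate starts with a peak over the window from those without. The T promoter held 14 CG dinucleotides with a peak of 17.3 normalized tags at its far side (8433791 to 8434291), while Igf2r held 27 and Cdkn1a 19 with no peak over the window. Cdkn1a did have a peak of 21.5 normalized tags within 1 kb of this start, inside the gene (29094369 to 29095032). Over all starts of the region, those with a peak over the window held a median of 15 CG dinucleotides and those without held 9. The same medians were 14 and 8 on the other autosomes.

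Peak density ran at 22.0 per Mb over the region, 29.4 in the proximal part and 17.2 in the distal part, beside 15.3 on the other autosomes. The region was 1.44 times as dense as the other autosomes (interval 1.37 to 1.51), and the next chromosome was chromosome 7 at 19.2 per Mb. The proximal part was 1.71 times as dense as the distal part (1.56 to 1.88). The distal part by itself was 1.12 times as dense as the other autosomes (1.05 to 1.20), so most of the excess lay below 40 Mb. Peaks covered 1.99% of the length of the region, 2.73% of its proximal part and 1.39% of the other autosomes.

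The peaks were gathered in a few windows. Over the 86 windows of 1 Mb the count ran from 4 to 79 with a median of 14.5, beside a median of 12 elsewhere. At least 50 peaks were found in 9 windows (10.5%), 7 of them proximal, against 2.94% of the 2211 windows of the other autosomes. The 10 densest windows held 33.9% of all peaks of the region. The median window held 22.5 peaks in the proximal part and 13 in the distal part.

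**Figure D1:**
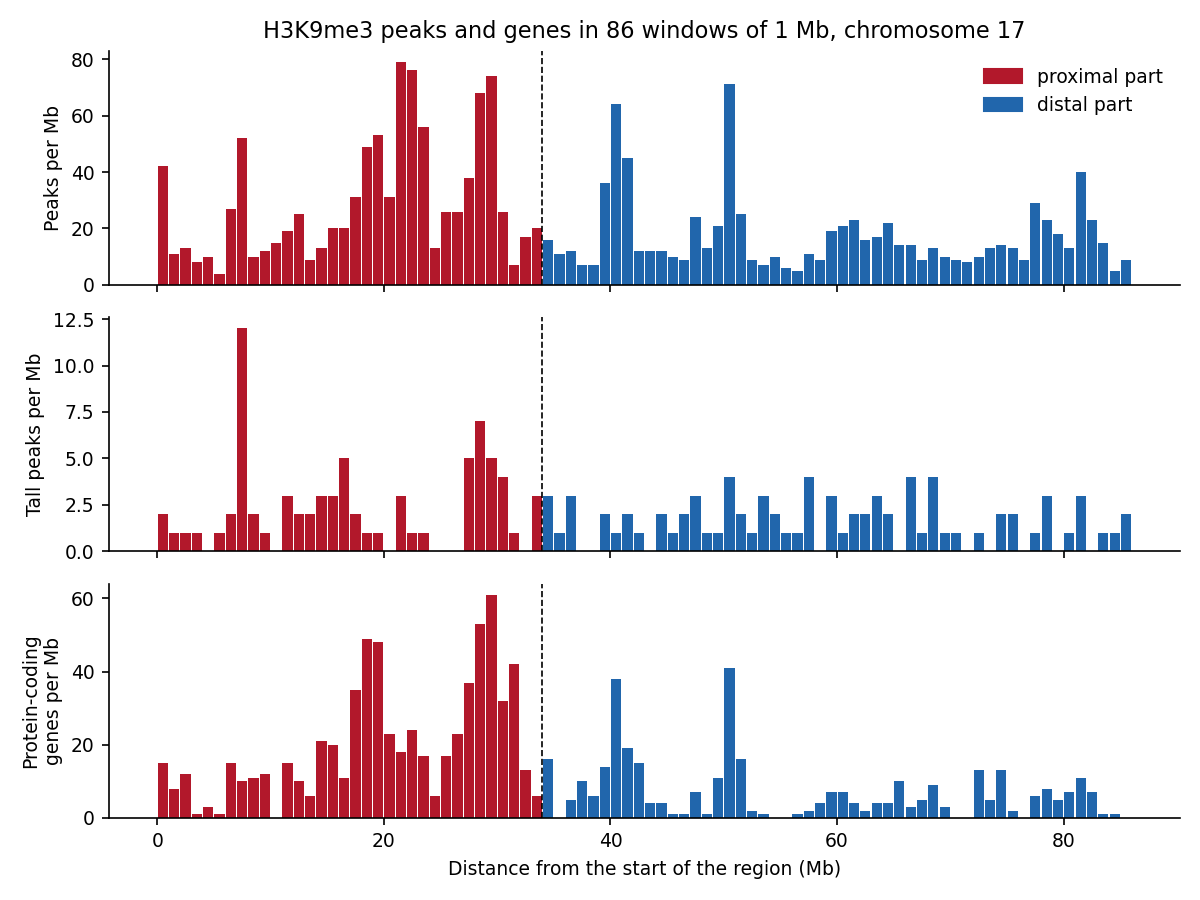
H3K9me3 peaks (top), tall peaks of at least 50.8 normalized tags (middle) and protein-coding genes (bottom) in each 1 Mb window of the chromosome 17 region, against distance from its start in Mb, with the proximal part in red, the distal part in blue and a dashed line between them. Peak counts reach 79 and follow the gene counts in most windows, while the window with 12 tall peaks holds only 10 genes.

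The densest window, from 27 to 28 Mb, held 79 peaks and 18 protein-coding genes. It is the stretch of Itpr3, a calcium release channel of the endoplasmic reticulum, Grm4, a metabotropic glutamate receptor, and Pacsin1, a membrane-bending adaptor of endocytosis. The next window, from 28 Mb, held 76 peaks and includes Ppard, a nuclear receptor for fatty acids, Tead3, a DNA-binding partner of YAP, and Tulp1, a photoreceptor protein. The pair held 18 and 24 genes, where the most gene-rich window of the region held 61.

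The windows from 35 and from 34 Mb held 74 and 68 peaks with 61 and 53 genes. Their genes with most peaks were Prrc2a, Vwa7 and the meiotic recombination gene Msh5 in the one, and Col11a2, a collagen chain, Rxrb, a retinoid X receptor, and Stk19 in the other. In the distal part the window from 56 Mb stood out with 71 peaks and 41 genes, among them Ptprs, a receptor tyrosine phosphatase, Mllt1, a subunit of an elongation complex, and the semaphorin gene Sema6b. All 5 of these windows held more genes than the median window of the region, which held 7.

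Gene number varied along the region much as peak number did. The region held 12.0 protein-coding genes per Mb, the proximal part 19.9, the distal part 6.85 and the other autosomes 8.26. Across windows, the Spearman correlation of genes with peaks was 0.703 over the 86 windows of the region and 0.534 over the 2211 others. Neighbouring windows share long genes and the windows come from 1 library, so these are descriptions. Per protein-coding gene, the region held 1.84 peaks and the other autosomes 1.85, and the proximal part, with 1.48, held fewer than the distal part, with 2.51.

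At like gene numbers a smaller difference in density remained. Windows were grouped by gene number into classes of 0, 1 to 5, 6 to 10, 11 to 20, 21 to 40 and over 40. With the region's share of windows in each class, the other autosomes would give 18.2 peaks per Mb, and the region held 1.21 times that. Gene numbers can still differ within a class. The ratio was 1.20 for the proximal part and 1.22 for the distal part. On this count both parts stood above other autosomes by nearly the same factor, where the densities themselves differed by 1.71 times. In windows with 6 to 10 genes the region had a mean of 19 peaks against 13.9, and in windows with none it had 9.63 against 10.1.

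**Figure D2:**
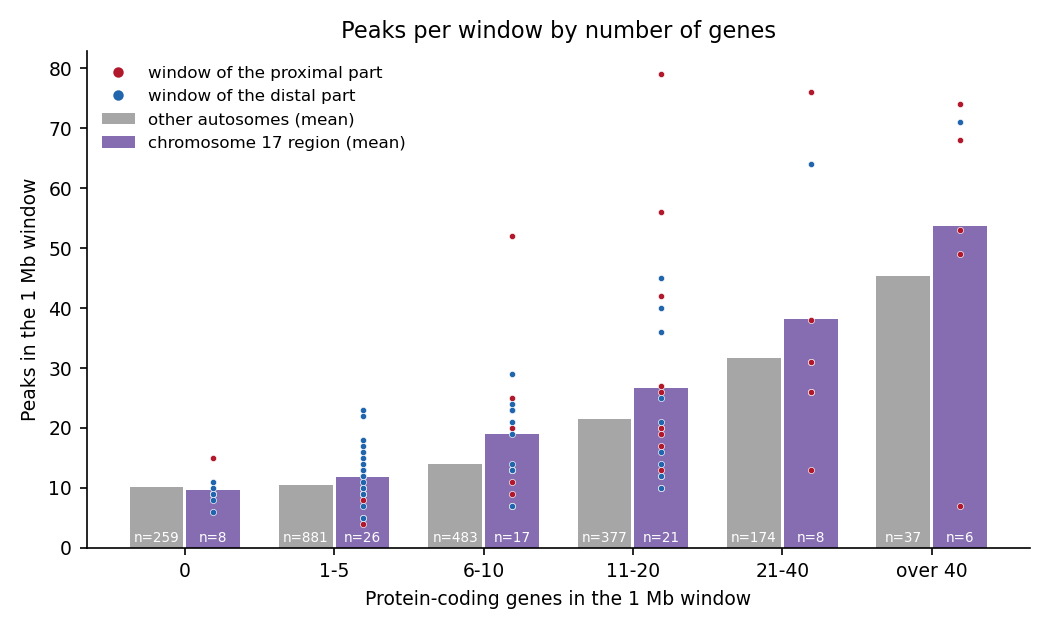
Mean number of peaks per 1 Mb window by its number of protein-coding genes, for the region (purple bars) and the other autosomes (grey bars), with the number of windows in each bar and each window of the region as a point, red for proximal and blue for distal. The purple bars rise from 9.63 in windows with no gene to 53.7 in windows with over 40 genes and pass the grey bars wherever a window holds a gene.

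Tall peaks were a slightly smaller share of all peaks in the region. It held 157 of them, or 8.29% of its peaks (7.09 to 9.63%), where 9.78% of all peaks of the trimmed autosomes were tall and 9.86% of those of the other autosomes. The proximal part had 75 (7.50%, 5.94 to 9.31%) and the distal part 82 (9.18%, 7.37 to 11.3%). With tall taken as the top 5% of the list, the share in the region over that elsewhere went from 0.841 to 0.989, and that in the proximal over the distal part turned from 0.817 to 1.07. Counted by length, tall peaks had the same order as all peaks, at 1.83 per Mb in the region against 1.51 elsewhere and at 2.21 in the proximal against 1.58 in the distal part (ratio 1.40, 1.01 to 1.94). The Spearman correlation of genes with tall peaks across windows was 0.243 in the region and 0.002 elsewhere.

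Of the 157 tall peaks, 122 held under 100 normalized tags, 26 held from 100 to under 200, and 9 held 200 or more. All 9 were proximal, as were the 10 tallest. The tallest distal peak reached 146.1, in Thada (84459625 to 84464415, 10.1-fold). At 100 or more, 23 were proximal and 12 distal.

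**Figure D3:**
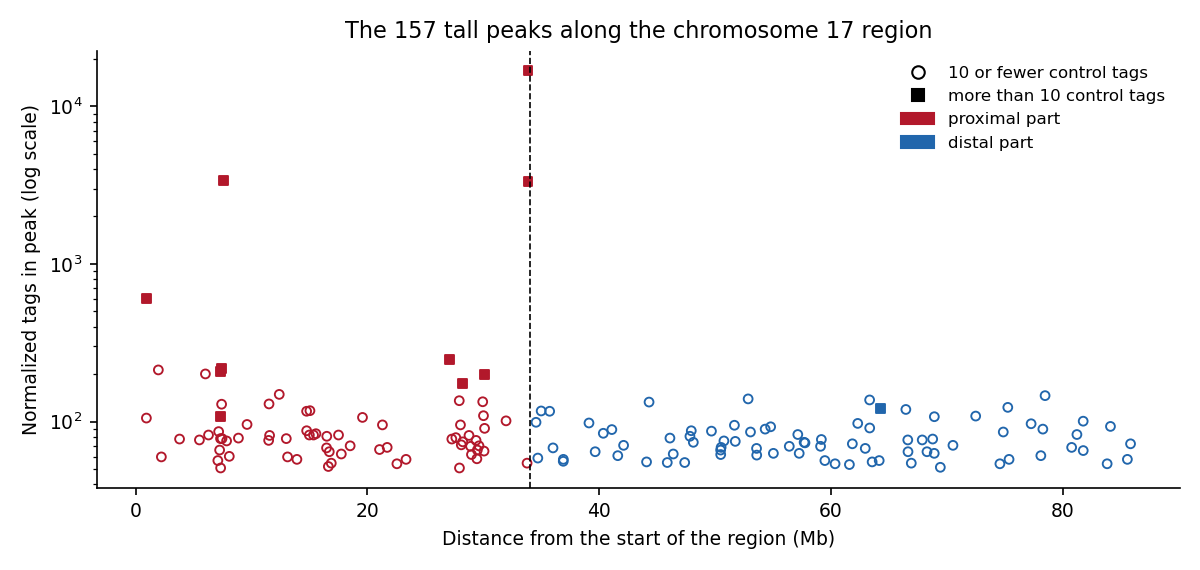
Normalized tags of each of the 157 tall peaks on a log scale against distance from the start of the region in Mb, red for proximal and blue for distal, with filled squares for peaks of more than 10 control tags. The 3 highest points, all filled and proximal, lie between 3315.7 and 16841.7, and the tallest distal peak lies at 146.1.

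The 3 tallest peaks stood far above the rest and also had the highest control tags. The tallest (39842469 to 39844725) held 16841.7 normalized tags and 1585.5 control tags, a fold of 6.94, and the third (39848375 to 39848875) held 3315.7 and 524, a fold of 4.13. Both lay within 5 kb of Rn18s-rs5, a pseudogene copy of ribosomal RNA sequence (39846354 to 39848202), and the third lay in the noncoding gene AY036118. The second tallest (13550085 to 13553669) held 3393.3 normalized and 258 control tags, a fold of 8.59, in the noncoding gene 2700054A10Rik.

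These 3 peaks held 33.8% of all normalized tags of the region. The 4 peaks within 50 kb of Rn18s-rs5 held 29.0% of its ChIP tags and 41.5% of its control tags. With the 3 left out, tall peaks held 29.7% of the normalized tags, 29.2% in the proximal and 30.4% in the distal part, and the mean peak held 24.9 and 23.8. The 3 peaks held 48.7% of the normalized tags of the proximal part, while its count of peaks went only from 1000 to 997 without them. The proximal sum was then 24808.6 over 34 Mb, still above the distal sum of 21252.8 over 52 Mb. More than 10 control tags were found in 10 of 75 tall proximal peaks, in 1 of 82 distal ones and in 7.52% of those elsewhere. Whether reads of repeated sequence were placed at these sites was not tested.

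Of the next peaks, several also had more than 10 control tags, where the median tall peak of the region had 4.5. The fourth tallest (6931929 to 6938404) held 605.5 normalized tags and 16.5 control tags, a fold of 24.0, inside Rsph3b, and the seventh (7955616 to 7957680) held 212.7 and 6, a fold of 23.2, inside its paralog Rsph3a. Both genes encode a radial spoke protein of cilia and sperm tails. Rsph3b had 2 more peaks, of 105.3 and 22.5 normalized tags, and neither gene had a peak at its start. Reads from the 2 copies could be split between them by the alignment, so their levels are uncertain.

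The fifth tallest, 247.8 normalized tags at 15.4-fold (33044005 to 33051370), was also the widest of the region at 7365 bp and lay 10624 bp from Zfp763. The tenth, 199.0 at 12.4-fold (36067831 to 36071869), lay 9186 bp from the nearest protein-coding gene. The highest fold among tall peaks was 76.6, in a peak of 117.3 normalized tags with 1 control tag near Zfp160 (21035163 to 21036907). An Alk peak of 119.4 (72449107 to 72451877) reached 52.0-fold. The peaks at Thada and Zfp160 were picked out after their values were seen.

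The window from 13 to 14 Mb held more tall peaks than any other of the region, 12 of its 52 peaks, with 10 protein-coding genes. The tall peaks ran from 50.8 to 3393.3 normalized tags with a median of 82.2, and their control tags from 2.5 to 258 with a median of 5.75. Only 1 had its centre in a protein-coding gene, 5 were in noncoding genes and 6 lay between genes. A run of 28 peaks with no gap over 50 kb, 7 of them tall, spanned 13305635 to 13499011 around Tcp10c, a member of the t-complex Tcp10 family. It included the sixth tallest peak of the region (217.4 normalized tags, 13418854 to 13424671, 8.35-fold) and the eighth (207.4, 13305635 to 13306752, 4.59-fold, 29.5 control tags). The median fold of the peaks in the run was 9.34. The 5 peaks at Tcp10c itself held only 10.5 to 15.7 normalized tags. Members of the Tcp10 family are close copies, and how reads were shared among them was not tested.

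The next windows by tall peaks were those from 34 Mb, with 7, and from 22, 33 and 35 Mb, with 5 each. The window from 22 Mb held only 20 peaks in all, of which 5 were tall. The zinc finger genes Zfp994, Zfp758 and Zfp946 were among its genes with 1 peak each, of 31.4, 29.3 and 16.2 normalized tags. Each of these peaks lay outside its gene, within 5 kb. No tall peak lay within 5 kb of these genes. The vomeronasal receptor gene Vmn2r112 of the same window had a tall peak of 51.9 normalized tags 3670 bp away. In the window from 33 Mb the genes with most peaks were Rgl2, Wdr46 and Daxx, which encodes a histone chaperone. A tall peak of 50.8 lay in Rgl2 and within 5 kb of Wdr46. The peak of 135.7 over Zbtb22 and Tapbp lay within 5 kb of Daxx without touching that gene.

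Most peaks lay in genes. The centre of 52.1% of peaks in the region was in a protein-coding gene (49.8 to 54.4%), 9.24% in another gene and 38.7% between genes, beside 47.8%, 8.53% and 43.6% on the other autosomes. Protein-coding genes covered 43.4% of the length of the region and 40.7% of the others, so peaks were in genes 1.20 and 1.17 times as often as length alone gives. The share in genes was 55.5% in the proximal and 48.3% in the distal part. Exons, introns and repeats were not analysed here.

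Tall peaks were placed differently. Only 33.1% had their centre in a protein-coding gene (25.8 to 41.1%) and 60.5% lay between genes, and the shares were 31.4% and 60.2% for the tall peaks of the other autosomes. The proximal and distal parts gave 33.3% and 32.9%. Of the 157, 62 lay in or within 5 kb of a protein-coding gene and 34 lay more than 50 kb from any. The lower share of tall peaks in genes was thus shared by both parts and by the other autosomes.

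**Figure D4:**
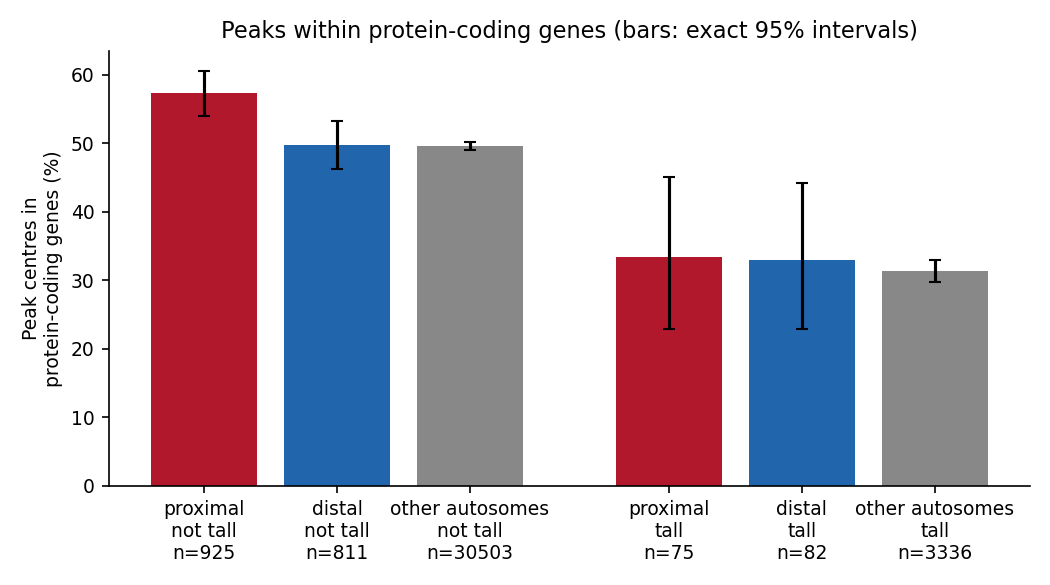
Percent of peak centres within protein-coding genes, with exact 95% binomial intervals as bars, for peaks that are not tall and for tall peaks, in the proximal part, the distal part and the other autosomes, with the number of peaks under each bar. Tall peaks stand between 31.4% and 33.3% in all 3 sets, and the other peaks reach 57.3% in the proximal part.

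Most peaks near starts of genes were low. Peak centres within 2 kb of a start made up 15.2% of the peaks of the region and 13.1% elsewhere. Of the tall peaks of the region, 6.37% were there. The far end of a gene had 9.51% of peaks against 5.96% elsewhere. Genes lie close together in the proximal part. More of the region's length is thus near a start, 4.1% against 2.86%, and near a far end, 3.73% against 2.58%. The length near a start was 6.64% in the proximal and 2.44% in the distal part. Per length, peaks were 3.69 times as frequent near starts as overall in the region and 4.56 times elsewhere. That value was 2.54 in the proximal and 5.41 in the distal part, on either side of the value elsewhere. Near far ends the values were 2.55 in the region and 2.31 elsewhere, with 1.98 in the proximal and 3.03 in the distal part. Tall peaks were 1.55 times as frequent near starts as overall in the region and 2.02 times elsewhere. In the proximal part the value was 1.00 and in the distal part 2.49, each resting on 5 tall peaks. In the 500 bp just inside a gene, 10.5 peak centres were found per 100 starts in the region and 10.6 elsewhere. That bin differed little from the other autosomes, and the region stood above them in the flanks, at 2.19 against 1.35 from 1500 to 1000 bp before the start.

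**Figure D5:**
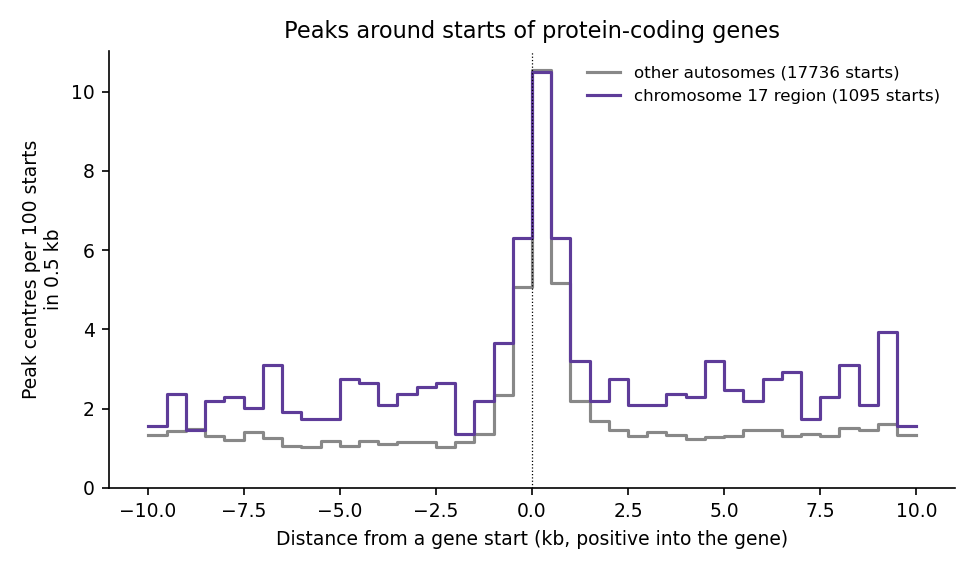
Peak centres per 100 starts of protein-coding genes in steps of 0.5 kb, from 10 kb before to 10 kb into the gene, for the region (1095 starts, purple) and the other autosomes (17736 starts, grey); a peak near several starts counts at each. Both lines reach 10.5 or 10.6 just inside the start, and the purple line lies above the grey one over most of the flanks.

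Counting genes rather than peaks, 657 of 1031 protein-coding genes had a peak in their span or within 5 kb (63.7%, 60.7 to 66.7%), where 56.6% of all such genes of the trimmed autosomes did. The distal part had the larger share, 250 of 356 (70.2%), and the proximal part 407 of 675 (60.3%). A tall peak was found at 69 genes (6.69%, beside 6.66% of all). At a start, within 1 kb, 269 of 866 genes had a peak (31.1%, beside 27% of all) and 14 had a tall one (1.62%, beside 1.4%). For tall peaks the genes of the region were thus at the level of all genes. Further genes with a tall peak over the start were Hspa1a, an inducible heat shock protein gene, and its neighbour Hspa1l (61.8 normalized tags, 4.75-fold), Ptprs (61.8), Znrf4 (68.6) and Cdkl4 (54.0), of which Hspa1a, Hspa1l, Znrf4 and Cdkl4 were chosen after their values were seen.

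The protein-coding genes with most peaks were Itpr3 and Dlgap1 with 13 each, Ppard with 12, Alk with 11 and Ptprs and Ttc7 with 10 each. They differ widely in length. Itpr3 spans 65222 bp and Dlgap1, which encodes a scaffold protein of synapses, spans 852341 bp. The 13 peaks at Itpr3 all lay inside the gene and held from 9.43 to 34 normalized tags, none of them tall. The 12 at Ppard, over 68716 bp, ran from 9.43 to 50.3, just under the tall threshold. Dlgap1 had 2 tall peaks, of 120.5 and 56.6. Ptprs had 2, of 66.0 and 61.8. Trerf1 had 9 peaks and Grm4 and Pacsin1 8 each, and Pacsin1 had 1 tall peak of 68.6 at 29.9-fold.

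Among the genes of the t-complex on the list used, 13 of 22 had a peak and 2 a tall one, Rsph3a and Rsph3b, and the median gene had 1 peak. Over all protein-coding genes of the region, 63.7% had a peak and 6.69% a tall one, so the t-complex genes were near that level for any peak. Dynlt1b, a dynein light chain gene, had 4 peaks, the tallest of 27.8 normalized tags. All 4 genes of the imprinted cluster had a peak and none a tall one. Igf2r, which encodes a receptor that clears IGF2, had peaks of 23.0 and 22.0 near its far end (12682612 to 12683699 and 12687535 to 12688386). Airn, the noncoding RNA that silences Igf2r on the paternal chromosome, had peaks of 37.7 and 9.43 (12818652 to 12820467 and 12794053 to 12794553). Slc22a3 had 1 of 24.1 at its start and Slc22a2 1 of 34. The list does not separate the parental chromosomes.

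Clustered sensory and secreted gene families were mostly without peaks. Of 86 vomeronasal and formyl peptide receptor genes and pseudogenes, 14 had a peak and 2 a tall one, and of 63 olfactory receptor genes 4 did, with 1 tall peak of 101.1 near Olfr761. Only 2 of 18 exocrine peptide and secreted protein genes had a peak, Crisp3 (26.2) and Crisp2 (10.5), both sperm or gland proteins. Genes of the zinc finger list, taken by symbol, had a peak in 19 of 41, with tall ones at Zfp52 (83.8) and Zfp414 (79.1). The median gene of each of these 4 lists held 0 peaks, against 1 over all protein-coding genes of the region, of which 657 of 1031 had a peak. The 4 olfactory receptor genes with a peak were short, at 960 to 1122 bp. Vomeronasal members differed more in length, from 1216 bp for Vmn2r-ps114 to 51587 bp for Vmn2r91. The part of gene length in these counts was not tested.

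Among developmental and synaptic genes nearly all had a peak, where 63.7% of all protein-coding genes of the region had one and 6.69% a tall one. A peak was found at 19 of 20 developmental regulators and a tall one at 3, Sox8 (106.3), Epas1 (68.6), which encodes a hypoxia-inducible factor, and Lbh (54.5). Foxp4 had 8 peaks, Tead3 7, Runx2 6 and Notch3 4, none of them tall. All 15 long adhesion and synapse genes had a peak and 5 had a tall one, among them Dlgap1, Alk and Ptprs. The median gene held 2 peaks on the first list and 5 on the second, whose genes are long, and the part of length was again not tested.

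Of 16 genes listed for the intestinal epithelium, 9 had a peak and none a tall one. For a list of this size that is near the 63.7% and 6.69% of all protein-coding genes of the region. The list includes Slc26a8 and Clps, and expression of its genes in these cells was not checked. Ppard accounted for 12 of their peaks. Axin1, a scaffold of the Wnt destruction complex, had 1 low peak of 11 normalized tags beyond its end, Cdkn1a, the cell cycle inhibitor p21, had 1 of 21.5 (29094369 to 29095032), and Tff3, a goblet cell peptide, had none. All 7 ribosomal protein genes on the list used, which does not hold every such gene of the region, had a peak. At the start 5 of them had one, where 31.1% of 866 protein-coding genes of the region did. None of these peaks was tall and the median gene held 2. Of 13 immune genes outside the histocompatibility genes, 9 had a peak and none a tall one, again near the shares of all genes. In the gene-dense stretch from 23.8 to 26.3 Mb, 10 of 11 listed genes had a peak, with Cacna1h (7), Tsc2 (6) and Caskin1 (5) having most. The tall peaks were at Sox8 and at 1 site in Caskin1 that lay within 5 kb of Traf7 (70.2, 5.09-fold, 9 control tags). Among list members, Zfp414, Epas1, Traf7 and Vmn2r112 were named for their tall peaks after these were seen.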

How the data were processed

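Sorted cells gave 1 ChIP and 1 control library. The submitters' processing notes name Bowtie2 (2.2.8), HOMER (4.10.1) and the builds GRCm38 and mm10. For the options of peak calling, nothing is given in the sources used here. Per the file headers, the normalized tag count and the control tags are coverage signals, the first scaled to an unstated total. The deposited fold is the ratio of scaled ChIP tags to control tags, never under 4. The deposited p-value of a peak (highest 8.32e-05) and the authors' score only describe and filter peaks within the list. Low normalized values were whole steps of 0.524, worth 0.5 tag, in 100% of cases within a tolerance of 0.1, which gave the tags per peak. In size the control library was 0.684 of the ChIP library. Control tags were floored at 0.5, which bounds the fold of such peaks.

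Peaks were assigned by centre to 1 Mb windows and to RefSeq gene spans of GRCm38.p6, the build of mm10. Starts came from RefSeq promoter windows of 250 bases before to 50 after a start, found for 866 of the 1031 protein-coding genes of the region. The other autosomes were trimmed from 6 Mb to 2 Mb short of their last full Mb, and shares at starts leave out chromosomes without promoter windows. Intervals are exact Clopper-Pearson or Poisson at 95%. Python 3.11 was used, and the overlap functions were tested on simulated data.

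The region and the 12 gene lists were chosen with earlier results of these data known. The naming rule took the 10 tallest peaks, the 10 protein-coding genes with most peaks, up to 3 genes of the 5 windows with most peaks and the 5 with most tall peaks, up to 4 members of each list, and T, Igf2r, Airn, Axin1, Tff3, Cdkn1a and Rn18s-rs5. Single histocompatibility genes were left aside, and a few genes within this rule are not reported here. Alternatives were other units of density, windows, edges, definitions of tall, and distances to genes. Planned exon, intron and repeat classes were not analysed here.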

Additional observations from a re-analysis of the deposited data

How the results depend on the processing

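Of 36 alternatives, 27 stayed within the counting interval of the value reported, 8 moved outside it and 1 turned its direction. The density ratio of the region to the other autosomes, 1.44, became 1.32 with peaks within 5 kb merged and 1.21 as a median over 1 Mb windows. The ratio of the proximal to the distal part, 1.71, became 1.52 with merged peaks and 1.47 with the edge at 30 Mb. The share of tall peaks in the region over that elsewhere, 0.841, became 0.989 when tall meant the top 5%. The same definition turned the proximal over the distal share from 0.817 to 1.07, and both intervals of that ratio include 1. That ratio was 0.717 (0.557 to 0.905) for tall peaks of at most 10 control tags. It was 0.733 (0.554 to 0.949) without windows with histocompatibility genes and 0.798 (0.630 to 0.994) without 100 kb around Rn18s-rs5. The other alternatives gave 0.791 to 0.956, with intervals that include 1. All these intervals take the distal share as exact and are thus too narrow. They do not tell whether any of these ratios lies below 1 beyond counting error. The lower share of tall peaks thus depends on the threshold. The densest 10 Mb held 33.9% of peaks, 31.4% in 2 Mb windows and 36.6% in 0.5 Mb windows. The ratio of marked genes, 1.14, became 1.08 with the gene span alone. The cause of these shifts was not tested. No paired analysis was possible because each group has 1 library and no replicate could be left out. The median of 16 tags per peak limits single low peaks, whose counting intervals are wide, as for T (16.5 tags, 9.52 to 26.6).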
